A study of Mus musculus with 12 samples.

Results

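The genes described here are those of the mouse major histocompatibility complex (MHC) and of the antigen presentation machinery that serves it. They were chosen by name: the genes whose symbol begins with H2-, together with B2m, Tap1, Tap2, Tapbp, Nlrc5, Ciita, Cd74, Psmb8, Psmb9, Psmb10, Erap1 and Cd1d1, where a probe set of the array carried that gene's symbol alone. This gave 45 of the 22180 genes named on the array, with 49 probe sets, and the brightest probe set stood for each gene. Cd74, the invariant chain of class II, H2-D1, H2-Q2, H2-Q6 to H2-Q9 and H2-T3, H2-T9, H2-T18 and H2-T22 had probe sets listing several genes and are not analysed here, so much of the class Ib Q and T regions is not described. H2-Ke6 carries an H2- symbol only because it lies in the complex, and encodes a steroid dehydrogenase outside antigen presentation.

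MHC class I molecules are heavy chains paired with beta-2 microglobulin that show peptides from inside the cell. The immunoproteasome cuts these peptides, the TAP transporter carries them into the endoplasmic reticulum, and tapasin and the peptidase ERAP1 help to load them. Class II molecules are pairs of chains that are loaded in endosomes with the help of DM and DO molecules and are mainly made by B cells, dendritic cells and macrophages. NLRC5 and CIITA are the transactivators of the class I and class II genes. CD1d is a class I-like molecule that shows lipids, and invariant natural killer T (iNKT) cells recognise lipids bound to it.

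The series stated an interest in how iNKT cells of 2 mouse strains differ in transcription, and 12 samples were profiled on Affymetrix whole-transcript arrays. The groups were BALB/c iNKT17 cells (3 arrays), B6 iNKT17 cells (2), B6 gamma-delta 17 cells (2), BALB/c ROR- cells (3) and B6 ROR- cells (2). iNKT17 cells are the interleukin 17 branch of the iNKT lineage and gamma-delta 17 cells are gamma-delta T cells of the same cytokine type. No treatment, age, sex, organ or sort gate is given, the extraction protocol speaks of frozen tissue, and the labels do not tie replicates to different animals or cultures. The p-values below therefore set a difference against the scatter of arrays within groups, pooled over all groups, and that scatter may be technical. As background, BALB/c mice carry the d haplotype of the MHC and B6 mice the b haplotype. The deposited values are on a log2 scale, and every level and difference below is in log2 units.

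The T cell genes Cd3e, Cd3d and Cd3g lay between 10.54 and 11.75 on all 12 arrays, and Zap70, a T cell receptor kinase, between 8.50 and 9.55. Cd2, an adhesion molecule and the other T cell marker followed, read 5.25 to 5.79 in BALB/c iNKT17, 7.49 and 7.54 in B6 iNKT17 and 7.21 and 7.89 in gamma-delta 17 cells, against 9.39 to 9.66 in ROR- cells, and was called lower in each comparison with ROR- cells. Il23r, a type 17 marker, read 9.53 to 10.29 on the iNKT17 and gamma-delta 17 arrays and 2.93 to 3.67 on the ROR- arrays except BALB/c ROR- replicate 2, where it read 7.0. Of the 5 such markers, Il1r1 and Ccr6 also lay higher on all iNKT17 and gamma-delta 17 arrays than on all ROR- arrays. Il17a and Sdc1 overlapped. Il17a read 4.33 on BALB/c iNKT17 replicate 3 and 4.41 on B6 ROR- replicate 2. Sdc1 read 7.55 and 7.76 on the gamma-delta 17 arrays and 8.05 on BALB/c ROR- replicate 2. Among ROR- arrays, BALB/c replicate 2 was also highest for Il1r1 and Sdc1, but not for Il17a (3.79) or Ccr6 (4.26). Among cells that use class II, 3 of 8 B cell markers were not above the dim level of 3.45 on any array, among them Ms4a1, the CD20 gene (2.61 to 3.17), while 4 were above it on every array. The brightest of these were the immunoglobulin gene Ighm (7.52 to 9.25) and Cd79b (4.39 to 8.24, the highest on a gamma-delta 17 array), and the list mean was 3.97 to 4.69. Of the 12 markers of dendritic cells, macrophages and monocytes, 1 to 4 were at or below that level on each array, and their mean level was between 4.38 and 4.87. The brightest were Cst3 (9.83 to 10.36) and Cd68 (5.71 to 6.58). The macrophage lysozyme gene Lyz2 stood at 6.86 on gamma-delta 17 replicate 1, against 3.03 to 3.82 on the other arrays. The part of such cells in the results below was not tested, and in bulk RNA fewer cells of a type and less RNA per cell cannot be told apart.

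The sequences shown are the 250 bases before the RefSeq start of 3 class I pathway genes whose arrays did not overlap between the strains, with lower values in BALB/c than in B6 cells of the same type, although only H2-K1 passed the test: the classical class I heavy chain H2-K1, the class Ib heavy chain H2-Q4 and the shared light chain B2m. They are of C57BL/6J, assembly GRCm38.p6, and each is given 5′ to 3′ on the strand of its gene. Capitals mark matches on either strand to CCAAT (the core of the Y box) and TGACG (the core of a cyclic AMP response element). They also mark GAANNGAAA and GGGANTCCC (a short kappa-B-like element). GAANNGAAA resembles an interferon-stimulated response element but has its repeats closer together, so it does not match the usual form. No 2 matches overlap in these 3 sequences.
H2-K1: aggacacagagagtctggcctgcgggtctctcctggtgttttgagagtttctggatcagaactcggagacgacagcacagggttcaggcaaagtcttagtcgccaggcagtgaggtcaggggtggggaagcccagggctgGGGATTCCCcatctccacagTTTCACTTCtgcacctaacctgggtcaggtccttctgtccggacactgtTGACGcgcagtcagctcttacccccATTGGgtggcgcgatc
H2-Q4: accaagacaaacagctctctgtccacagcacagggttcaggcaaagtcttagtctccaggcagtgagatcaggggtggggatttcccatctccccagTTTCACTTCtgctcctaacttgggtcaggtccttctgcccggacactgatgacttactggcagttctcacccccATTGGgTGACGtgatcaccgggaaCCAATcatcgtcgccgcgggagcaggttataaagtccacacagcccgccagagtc
B2m: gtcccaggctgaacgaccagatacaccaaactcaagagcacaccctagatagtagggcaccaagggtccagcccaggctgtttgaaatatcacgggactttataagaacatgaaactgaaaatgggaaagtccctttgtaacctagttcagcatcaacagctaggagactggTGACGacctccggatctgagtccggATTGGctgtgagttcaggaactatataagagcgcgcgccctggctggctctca

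The H2-K1 sequence is chr17:34000348-34000597 on the minus strand, that of H2-Q4 is chr17:35379367-35379616 on the plus strand, and that of B2m is chr2:122147437-122147686 on the plus strand. H2-K1 held all 4 motifs, H2-Q4 held all but GGGANTCCC, and B2m held CCAAT and TGACG. Of the 32 members with a RefSeq promoter entry, 26 held CCAAT, 12 held TGACG, 5 held GAANNGAAA and 1 held GGGANTCCC. In all 32851 entries of the same length the shares were 33.85%, 17.8%, 6.31% and 0.636%. The usual interferon-stimulated response element was not searched for, and neither were longer forms of kappa-B sites. The GAANNGAAA and GGGANTCCC counts therefore do not show which promoters hold those elements. The same holds for the lack of GAANNGAAA in B2m and of GGGANTCCC in B2m and H2-Q4. Class I genes are related in sequence, so their promoters are not independent, and a match is a description of letters only.

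Of the 45 members, 32 had at least 2 arrays above the dim level, set at percentile 30 of all values with a gene name, and were tested, while 13 were set aside. All 9 genes of class I processing, loading and control were tested, with H2-K1 and Cd1d1. Of the 21 class Ib genes 11 were tested. The other 10 were H2-M1, H2-M2, H2-M9, H2-M11 and the 6 genes H2-M10.1 to H2-M10.6, and among these only H2-M10.1 was above the dim level on any array, at 3.52 on gamma-delta 17 replicate 1. H2-Pb, H2-DMb1 and H2-DMb2, the last 2 encoding the beta chains that pair with H2-DMa, were not above it on any array.

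The strain comparison asked which members differed between BALB/c and B6 cells of the same type. In iNKT17 cells 4 of 32 members passed the threshold of 0.05 on the adjusted p, 1 higher and 3 lower in BALB/c, and in ROR- cells 3 passed, all lower in BALB/c. Over all 16667 genes tested, 1.48% were called in iNKT17 cells, with 0.672% higher and 0.81% lower, and 1.22% in ROR- cells, with 0.84% lower. The members' shares were 12.5% and 9.38%. H2-K1, H2-T10 and Nlrc5 were lower in BALB/c in both cell types, from arrays that the comparisons do not share. The class II chain gene H2-Ab1 was the member that was higher.

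H2-K1 read 9.36, 8.97 and 9.02 in BALB/c iNKT17 cells, against 10.31 and 10.39 in B6 iNKT17 cells. It read 9.26, 9.56 and 9.36 in BALB/c ROR- cells, against 10.71 and 10.35 in B6 ROR- cells. Every BALB/c array lay below every B6 array. The difference was -1.23 ± 0.16 (SE; limma adjusted p = 0.00242) in iNKT17 cells, a 2.35-fold lower signal, and -1.14 ± 0.16 (limma adjusted p = 0.00412) in ROR- cells, a 2.20-fold lower signal. Without B6 ROR- replicate 1 the ROR- difference was -0.96 and its call was lost (limma adjusted p = 0.0706).

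H2-T10, a class Ib gene of the T region that RefSeq lists as a transcribed pseudogene in C57BL/6J, showed the widest strain gap among the tested members in both cell types. It read 3.90, 4.46 and 4.07 in BALB/c iNKT17 cells, against 6.62 and 6.56 in B6 iNKT17 cells. It read 4.30, 4.22 and 4.30 in BALB/c ROR- cells, against 6.82 and 6.27 in B6 ROR- cells. Both B6 gamma-delta 17 arrays, at 6.24 and 6.12, also lay above all BALB/c arrays. The difference was -2.44 ± 0.18 (limma adjusted p = 5.05e-05) in iNKT17 cells and -2.27 ± 0.18 (limma adjusted p = 8.79e-05) in ROR- cells, and it passed under all 21 alternatives in each.

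Nlrc5, the class I transactivator gene, lies outside the MHC on chromosome 8. It read 5.86, 6.32 and 6.09 in BALB/c iNKT17 cells, against 7.54 and 7.19 in B6 iNKT17 cells. It read 6.67, 6.33 and 6.23 in BALB/c ROR- cells, against 7.41 and 7.30 in B6 ROR- cells. The groups did not overlap in either cell type. The difference was -1.28 ± 0.19 (limma adjusted p = 0.00528) in iNKT17 cells and -0.94 ± 0.19 (limma adjusted p = 0.0345) in ROR- cells. The iNKT17 call was lost without B6 iNKT17 replicate 1 (-1.10, limma adjusted p = 0.0671). The ROR- call did not survive leaving out either B6 ROR- array, BALB/c ROR- replicate 2 or 3, or BALB/c iNKT17 replicate 3, with limma adjusted p-values of 0.0596 to 0.217, and it was also lost with only the groups compared (0.089).

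**Figure D1:**
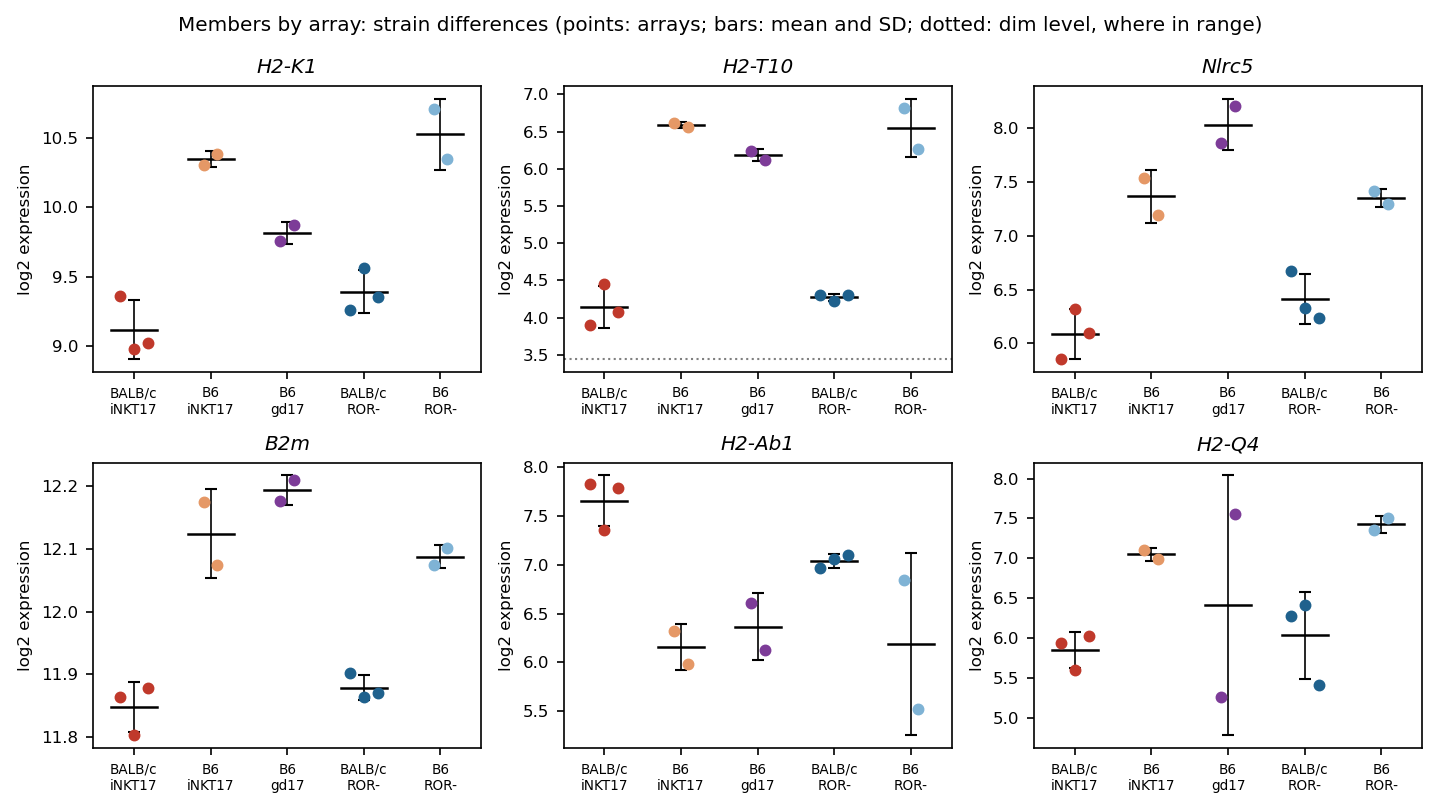
Levels (log2 units, vertical axes) of 6 members on each of the 12 arrays, by group (gd17, gamma-delta 17 cells); points are arrays, black bars the group mean with its SD, and the dotted line the dim level of 3.45 where it falls in range. H2-K1, H2-T10 and Nlrc5 are lower on every BALB/c array than on every B6 array of the same cell type, H2-Ab1 is higher, and the H2-Q4 values of the gamma-delta 17 arrays lie far apart at 5.26 and 7.56.

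The genes that cut, carry and load class I peptides differed less. By the brightest probe set, each of the 9 members of class I processing, loading and control, Nlrc5 included, had a lower mean in BALB/c in both cell types. Only Nlrc5 passed. Of all genes tested 29.4% were lower in BALB/c in both. B2m, the light chain of every class I molecule, read 11.86, 11.80 and 11.88 in BALB/c iNKT17 cells, against 12.17 and 12.07 in B6 iNKT17 cells. The difference was -0.28 ± 0.10 (limma adjusted p = 0.274), and -0.21 ± 0.10 (limma adjusted p = 0.460) in ROR- cells, with no overlap between strains in either. Such separation was common: 31.7% of all genes tested did not overlap between the strains in iNKT17 cells and 26.3% in ROR- cells, against 15 and 14 of the 32 members. The immunoproteasome subunit Psmb9 differed by -0.27 ± 0.18 in iNKT17 and -0.36 ± 0.18 in ROR- cells, its partner Psmb8 by -0.08 ± 0.13 and -0.05 ± 0.13, and the transporter chain Tap1 by -0.26 ± 0.17 and -0.13 ± 0.17. None of these 3 passed, nor did Psmb10 (-0.13 ± 0.19 and -0.28 ± 0.19), Erap1 (-0.34 ± 0.15 and -0.13 ± 0.15) or tapasin, Tapbp (-0.09 ± 0.12 and -0.22 ± 0.12). A second, dimmer Tapbp probe set gave differences of group means of 0.06 and -0.50, so its direction in iNKT17 cells depends on the probe set.

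Among the class II chains H2-Ab1, the beta chain of I-A, was the chain that passed. It read 7.82, 7.35 and 7.78 in BALB/c iNKT17 cells, against 6.32 and 5.99 in B6 iNKT17 cells. The difference was 1.5 ± 0.31 (limma adjusted p = 0.0376), a 2.82-fold higher signal. In ROR- cells it read 6.96, 7.06 and 7.10 in BALB/c, against 6.84 and 5.53 in B6, and the difference of 0.85 ± 0.31 did not pass (limma adjusted p = 0.293). The iNKT17 call was fragile: it was lost on leaving out any of the 3 BALB/c ROR- arrays, either B6 iNKT17 array, or BALB/c iNKT17 replicate 1 or 3, with limma adjusted p-values of 0.0511 to 0.413. Without B6 ROR- replicate 1 the ROR- difference was 1.51 and passed (limma adjusted p = 0.0268).

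H2-Aa, the alpha chain that pairs with H2-Ab1, read 3.16 to 3.62 over the 12 arrays, around the dim level, and the size of any difference there is uncertain. H2-Eb1 and H2-Eb2 read 3.66 to 4.16 and 3.59 to 4.2. H2-Ea, whose b allele is known not to be transcribed normally in antigen-presenting cells because its promoter is deleted, read 3.46 to 4.15, with BALB/c minus B6 differences of 0.18 ± 0.21 in iNKT17 and 0.21 ± 0.21 in ROR- cells. None of these 4 chains passed in any of the 8 comparisons.

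In the class Ib Q region H2-Q4, one of the Qa genes, read 5.94, 5.60 and 6.03 in BALB/c iNKT17 cells, against 7.11 and 6.99 in B6 iNKT17 cells. In ROR- cells it read 6.28, 6.42 and 5.42 in BALB/c, against 7.35 and 7.50 in B6. All BALB/c arrays lay below the B6 arrays of their cell type, yet the differences of -1.19 ± 0.50 and -1.39 ± 0.50 did not pass (limma adjusted p = 0.340 and 0.293). The shared estimate of spread includes the 2 gamma-delta 17 arrays at 5.26 and 7.56. With either of these left out the limma adjusted p was 0.057 in iNKT17 cells, still not past the threshold, and 0.0299 in ROR- cells, past it. With only the groups compared in the fit it was 0.0234 in iNKT17 cells, past the threshold, and 0.12 in ROR- cells, not past it. Between the strains H2-Q4 passed under none of the other alternatives run. A second, dimmer H2-Q4 probe set gave differences of group means of -0.55 and -0.72. For the neighbouring H2-Q5, a transcribed pseudogene in RefSeq, the brightest probe set gave -0.87 ± 0.31 in iNKT17 and -0.66 ± 0.31 in ROR- cells, neither past the threshold, and its second probe set gave means that differed by 0.32 and -0.21, so the direction in iNKT17 cells depends on the probe set.

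**Figure D2:**
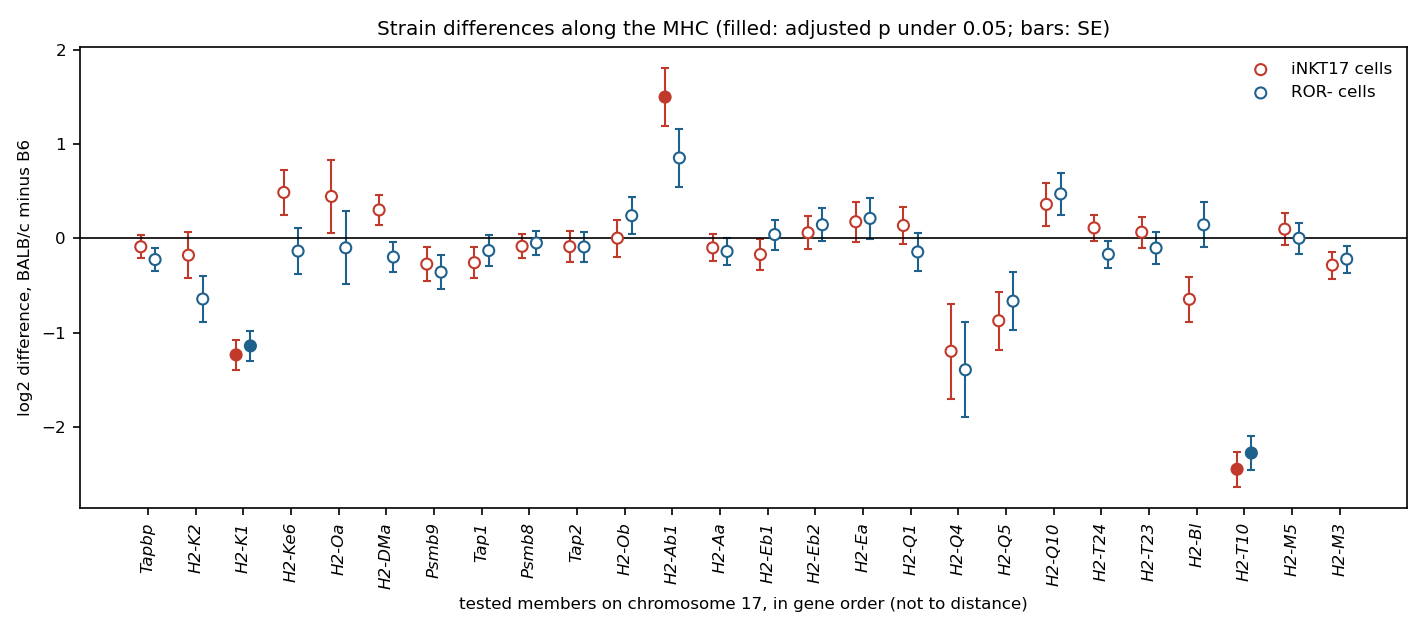
BALB/c minus B6 differences (log2 units, vertical axis) of the 26 tested members on chromosome 17, in gene order and not to distance, in iNKT17 and ROR- cells; points are limma estimates, bars their SE, and filled points passed the threshold. H2-K1 and H2-T10 lie well below 0 in both cell types, H2-Ab1 lies above it, and most of the others lie nearer 0.

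None of the remaining class Ib members passed between the strains. H2-T23, the Qa-1 gene, differed by 0.07 ± 0.17 in iNKT17 and -0.10 ± 0.17 in ROR- cells, and H2-M3, which shows N-formylated peptides, by -0.28 ± 0.14 and -0.22 ± 0.14. H2-Q10, at 0.36 ± 0.23 and 0.47 ± 0.23, did not pass. The pseudogene H2-Bl stood at -0.64 ± 0.24 and 0.14 ± 0.24 and the pseudogene H2-K2 at -0.18 ± 0.25 and -0.64 ± 0.25. At the larger of these values the strains did not overlap for either gene, but neither passed. Cd1d1, the lipid-presenting molecule seen by iNKT cells, read 5.80, 5.46 and 5.68 in BALB/c iNKT17 cells, against 5.85 and 5.13 in B6 iNKT17 cells (0.16 ± 0.23, limma adjusted p = 0.850), and the strains overlapped in ROR- cells too. Over all tested members 22 of 32 had the same sign in both cell types, 16 of them lower in BALB/c. The matching share was 68.8% of members and 65.9% of all genes, and the share lower in both was 50% of members and 29.4% of genes. The median strain difference of the members was -0.09 in iNKT17 and -0.14 in ROR- cells, beside 0.027 and 0.009 over all genes tested.

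The array's probes were not examined here. The strains carry different MHC haplotypes, so for genes inside the complex a difference in RNA and a difference in how well the probes match each allele cannot be told apart. The same limit holds for genes outside the complex, such as Nlrc5, B2m, Ifi30 and Ifngr1, wherever the strains differ in sequence under the probes.

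The cell type comparison asked which members differed between iNKT17 and ROR- cells of the same strain. As the mean of both strains 5 of 32 members passed, all lower in iNKT17 cells: the class II loading gene H2-DMa, the class Ib genes H2-T24, H2-Q5 and H2-Q10, and the transporter chain Tap2. Of all genes tested 12.3% were called and 5.81% were called lower, against 15.6% of members. Within each strain H2-DMa and H2-T24 passed, 2 of 32 or 6.25% of members, both lower. Of all genes 6.97% were called in BALB/c, 2.91% lower, and 5.99% in B6, 3.16% lower, so the members' share was near the background. Groups that did not overlap were found for 5 of 32 members in BALB/c and 11 in B6, beside 22.2% and 46.4% of all genes. Without BALB/c ROR- replicate 2, the array with the raised Il23r, 3 members passed as the mean of both strains and 0 in BALB/c. Among the 4 tested B cell markers Cd79b, a chain of the B cell receptor, was higher in iNKT17 cells by 1.76 ± 0.19 (limma adjusted p = 6.01e-05), and Ighm and Cd79a were lower, at -0.67 ± 0.16 and -0.43 ± 0.13. Of 7 markers of thymic and other epithelium 2 were lower in iNKT17 cells as the mean of both strains, Ly75 at -0.48 ± 0.12 and Cdh1 at -0.41 ± 0.11, and 0 were higher. Their median difference was -0.17, the list mean was 4.16 to 4.27 on iNKT17 arrays, against 4.34 to 4.48 on ROR- arrays, and 5 of the 7 were above the dim level on every array. The part of these cell types in the member results was not tested.

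H2-DMa encodes the alpha chain of DM, which exchanges peptides on class II. It read 5.83, 5.78 and 5.73 in BALB/c iNKT17 cells, against 6.33, 6.56 and 6.29 in BALB/c ROR- cells. In B6 it read 5.55 and 5.40 in iNKT17 cells, against 6.52 and 6.66 in ROR- cells. No iNKT17 array reached any ROR- array. The difference was -0.61 ± 0.14 in BALB/c (limma adjusted p = 0.0214), -1.11 ± 0.17 in B6 (limma adjusted p = 0.00219) and -0.86 ± 0.11 as the mean of both (limma adjusted p = 2.71e-04). The mean and the B6 value passed under all 21 alternatives, while that of BALB/c needed BALB/c ROR- replicate 2 and each of the 3 BALB/c iNKT17 arrays (limma adjusted p = 0.0548 to 0.0875).

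H2-T24, a class Ib gene of the T region, read 5.77, 5.46 and 5.71 in BALB/c iNKT17 cells, against 6.15, 6.20 and 6.26 in BALB/c ROR- cells. In B6 it read 5.53 and 5.54 in iNKT17 cells, against 6.46 and 6.28 in ROR- cells. Here too the cell types did not overlap in either strain. The difference was -0.56 ± 0.13 in BALB/c (limma adjusted p = 0.0190) and -0.84 ± 0.15 in B6 (limma adjusted p = 0.00639). The BALB/c value no longer passed when replicate 2 or 3 of either BALB/c group was left out (limma adjusted p = 0.05 to 0.081), and the B6 call was lost without B6 ROR- replicate 1 (limma adjusted p = 0.0801). The mean of both strains, -0.70 ± 0.10, passed under all 21 alternatives.

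H2-Q5 read 6.88, 6.21 and 6.29 in BALB/c iNKT17 cells, against 7.36, 7.70 and 7.18 in BALB/c ROR- cells, and in B6 7.66 and 7.0 in iNKT17 cells, against 8.12 and 8.04 in ROR- cells. Its mean difference was -0.85 ± 0.22 (limma adjusted p = 0.0230), and the second probe set gave a difference of means of -0.62. H2-Q10, which encodes a secreted class Ib molecule known mainly from liver, had a mean difference of -0.62 ± 0.16 (limma adjusted p = 0.0255), and its second probe set gave -0.12 with opposite signs in the 2 strains. Q region genes are close copies of each other, so which of them these probe sets read is uncertain. With the mean of both probe sets neither gene passed (limma adjusted p = 0.109 and 0.0738). Both genes also missed the threshold when any of 4 arrays was left out: replicates 2 and 3 of BALB/c iNKT17 and replicate 2 of each of the B6 iNKT17 and ROR- groups. H2-Q5 missed it without B6 ROR- replicate 1 and without replicate 2 of BALB/c ROR- too.

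Tap2 differed by -0.39 ± 0.15 in BALB/c, -0.40 ± 0.18 in B6 and -0.39 ± 0.12 as their mean (limma adjusted p = 0.0455). Its BALB/c values of 6.29, 6.62 and 6.73 in iNKT17 cells lay below those of 6.97, 6.84 and 7.02 in ROR- cells, and its B6 values of 6.68 and 6.59 in iNKT17 cells below 7.26 and 6.80 in ROR- cells. The call sat at the threshold and held in 6 of the 21 alternatives. It was lost in 10 of the 12 fits with an array left out. Median centring, no dim filter, only the groups compared, array weights and the replicate number as a block also lost it.

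**Figure D3:**
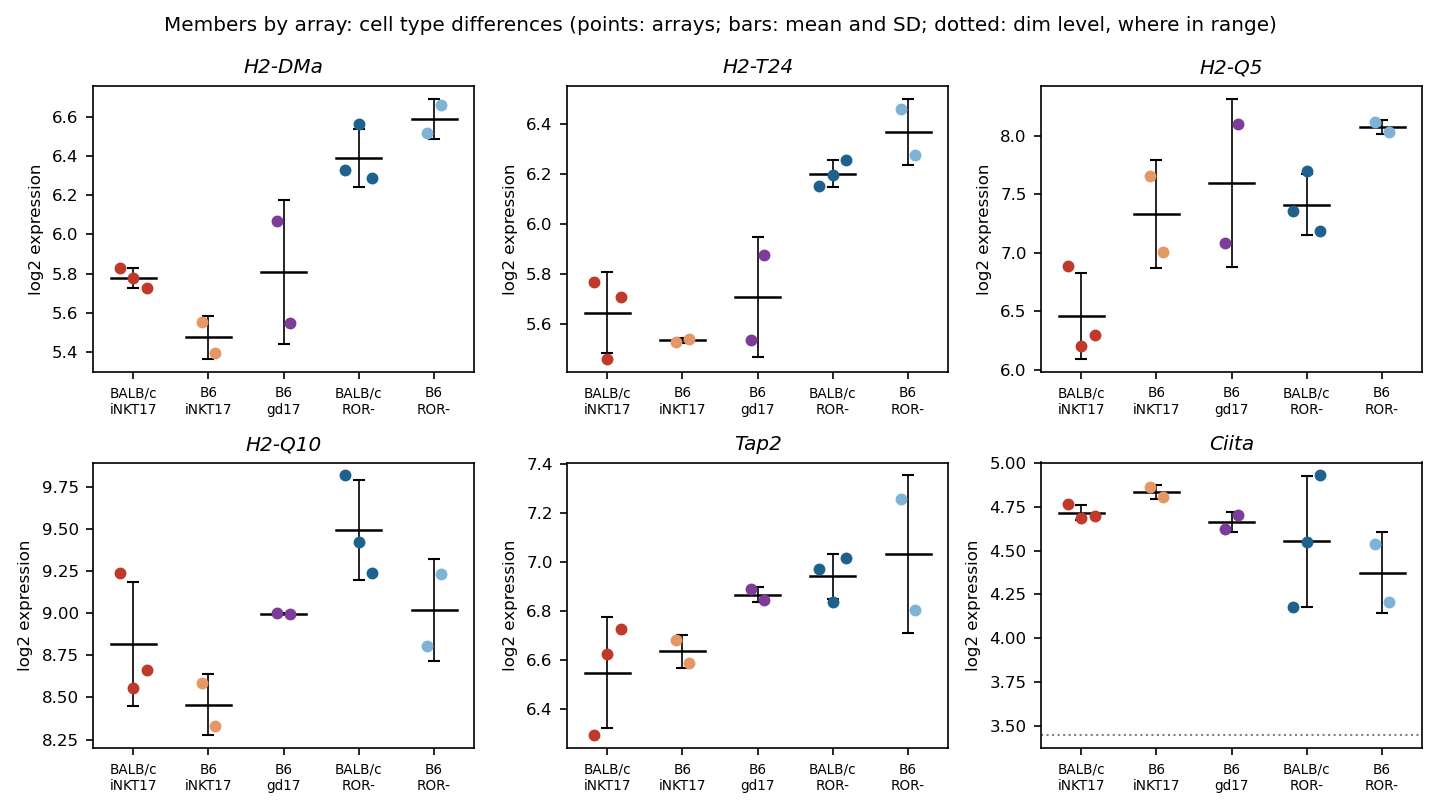
Levels (log2 units, vertical axes) of 6 members on each of the 12 arrays, by group (gd17, gamma-delta 17 cells); points are arrays, black bars the group mean with its SD, and the dotted line the dim level of 3.45 where it falls in range. H2-DMa and H2-T24 are lower on all iNKT17 arrays than on all ROR- arrays of the same strain, while the Ciita groups of BALB/c overlap.

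Most of the class I pathway showed little cell type difference. H2-K1 differed by -0.27 ± 0.14 in BALB/c and -0.18 ± 0.17 in B6, B2m by -0.03 ± 0.09 and 0.04 ± 0.11, and Tap1 by -0.09 ± 0.15 and 0.04 ± 0.18. Nlrc5 differed by -0.32 ± 0.17 in BALB/c and 0.01 ± 0.20 in B6. Tapbp differed by -0.08 ± 0.11 in BALB/c and -0.22 ± 0.14 in B6. None of these passed in either strain or as the mean. The second Tapbp probe set gave larger differences of group means, -0.14 in BALB/c and -0.70 in B6. The median over the members was -0.05 as the mean of both strains, beside -0.0035 over all genes. The pseudogene H2-K2, at -0.27 ± 0.22 in BALB/c and -0.73 ± 0.27 in B6, and Cd1d1, at 0.01 ± 0.20 and -0.39 ± 0.25, did not pass.

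The class II genes did not move as a group with H2-DMa. Ciita, the class II transactivator, read 4.77, 4.68 and 4.70 in BALB/c iNKT17 cells, against 4.18, 4.55 and 4.93 in BALB/c ROR- cells, and in B6 4.86 and 4.80 in iNKT17 cells, against 4.54 and 4.21 in ROR- cells. Its mean difference was 0.31 ± 0.13 and passed only without BALB/c ROR- replicate 3 (0.41, limma adjusted p = 0.0287). H2-Oa, the alpha chain of DO, differed by 0.60 ± 0.35 in BALB/c and 0.06 ± 0.42 in B6, and its partner H2-Ob by -0.32 ± 0.18 and -0.08 ± 0.22. H2-Ab1 differed by 0.61 ± 0.28 in BALB/c, with no overlap, and by -0.03 ± 0.34 in B6. As the mean of both strains H2-Ab1 stood at 0.29 without passing, at 0.62 with a call without B6 ROR- replicate 1 (limma adjusted p = 0.0318) and at -0.037 without B6 ROR- replicate 2.

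**Figure D4:**
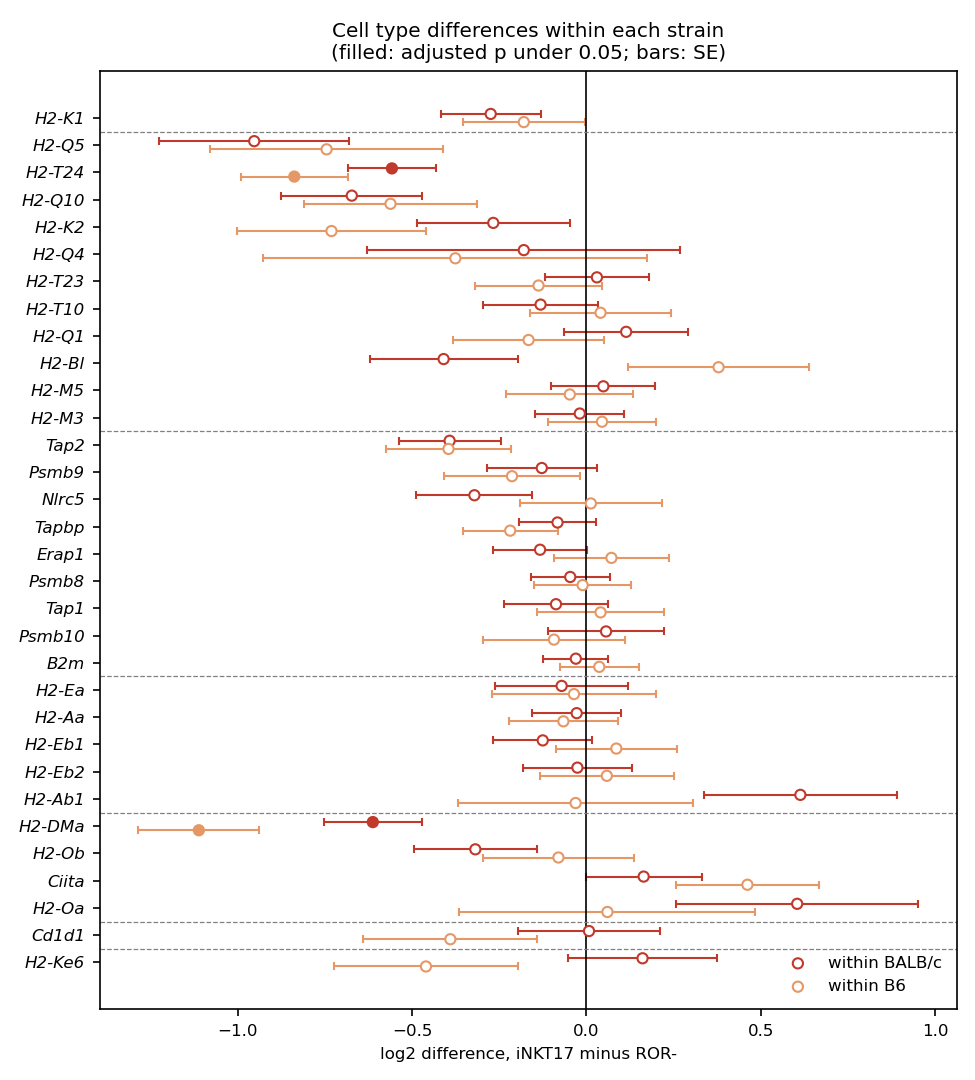
iNKT17 minus ROR- differences (log2 units, horizontal axis) of the 32 tested members within BALB/c and within B6; points are limma estimates, bars their SE, filled points passed the threshold, and dashed lines part classical class I, class Ib, class I processing, class II chains, class II loading, Cd1d1 and H2-Ke6, from top to bottom. H2-DMa and H2-T24 are filled in both strains.

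Whether the cell type difference itself differed between the strains was tested as an interaction. None of the 32 members passed in limma, with 2 at an unadjusted p under 0.05 (6.25% of members and 4.01% of all genes), and the lowest adjusted p was 0.999. Over all genes 0.084% were called. So the larger fall of H2-DMa in B6 than in BALB/c was not shown to differ. The signs of the cell type differences matched between strains for 16 of 32 members, 50%, and for 67.2% of all genes.

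In B6 the gamma-delta 17 cells could be set against both other types. Compared with ROR- cells 3 of 32 members passed, 9.38%, all lower in gamma-delta 17 cells, beside 6.02% of all genes called and 3.41% called lower. Groups did not overlap for 14 of 32 members and 48.5% of all genes. They were H2-DMa, which read 6.07 and 5.55 in gamma-delta 17 cells (-0.78 ± 0.17, limma adjusted p = 0.0201), H2-T24, which read 5.54 and 5.88 (-0.66 ± 0.15, limma adjusted p = 0.0252), and H2-K1, which read 9.76 and 9.87 (-0.71 ± 0.175, limma adjusted p = 0.0338). This comparison uses the same 2 ROR- arrays as that of B6 iNKT17 cells. Without gamma-delta 17 replicate 1, the array with the raised Lyz2, 1 of 32 passed. Without B6 ROR- replicate 1 none passed, the H2-K1 difference being -0.53, and with only these groups fitted none passed either, with limma adjusted p-values of 0.0854 to 0.108 for the 3 genes. H2-DMa was also lost without gamma-delta 17 replicate 2 (-0.52) or B6 ROR- replicate 2. H2-T24 was lost without gamma-delta 17 replicate 1 (-0.49) or B6 ROR- replicate 2, and H2-K1 without either gamma-delta 17 or either B6 iNKT17 array. H2-K1 also missed the threshold after quantile normalization (limma adjusted p = 0.0516).

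Nlrc5 read highest in gamma-delta 17 cells, at 7.87 and 8.20, against 7.41 and 7.30 in ROR- cells (0.68 ± 0.20, limma adjusted p = 0.0804), which passed only after quantile normalization (limma adjusted p = 0.0498). Between iNKT17 and gamma-delta 17 cells none of the 32 members passed in limma, with 3 at an unadjusted p under 0.05 (9.38% of members and 8.50% of all genes), beside 0.168% of all genes called. Groups did not overlap for 10 of 32 members and 41% of all genes. The 3 members were Nlrc5 at -0.67 ± 0.20, H2-K1 at 0.53 ± 0.175 and the peptidase gene Erap1 at 0.38 ± 0.17 in iNKT17 minus gamma-delta 17 cells. Both comparisons use the same 2 gamma-delta 17 arrays. For H2-Q4 the 2 gamma-delta 17 arrays decided the value against ROR- cells: it was -1.02 with both, 0.13 without replicate 1 and -2.16, with a call, without replicate 2 (limma adjusted p = 0.00583). The second H2-Q4 probe set read 5.60 and 5.33 on these arrays.

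Other genes of the pathway were followed from 3 lists, whose median differences between iNKT17 and ROR- cells, as the mean of both strains, were 0.11 (class I supply), 0.18 (class II processing) and 0.08 (transcription), beside -0.0035 over all genes. In that comparison 12.3% of all genes tested were called, and 5.81% were called lower. Of 13 tested genes of class I folding and peptide supply, 1 fell and 0 rose in iNKT17 against ROR- cells as the mean of both strains. It was Tapbpl, a tapasin relative that edits class I peptides, at -0.83 ± 0.11 (limma adjusted p = 2.77e-04), and it passed in both strains. Between the strains none of the 13 passed in either cell type. Of 10 tested genes of class II processing and lipid loading 3 rose and 0 fell in iNKT17 cells: Ifi30, the lysosomal thiol reductase, by 0.99 ± 0.12 (limma adjusted p = 2.18e-04), the lysosomal protease gene Lgmn by 0.66 ± 0.17 (0.0263), and Psap, the precursor of the saposins that help to load lipids on CD1d, by 0.62 ± 0.09 (7.32e-04).

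Ifi30 also differed between strains. It read 8.54, 8.56 and 8.73 in BALB/c iNKT17 cells, against 9.62 and 9.71 in B6 iNKT17 cells (-1.06 ± 0.18, limma adjusted p = 0.0117), and 7.71, 7.55 and 7.2 in BALB/c ROR- cells, against 8.56 and 9.06 in B6 ROR- cells (-1.32 ± 0.18, limma adjusted p = 0.00293). Ctss, the protease that trims the invariant chain, was lower in BALB/c iNKT17 cells (-0.72 ± 0.14, limma adjusted p = 0.0232). In the list of 17 transcription and interferon receptor genes, Ifngr1, a chain of the receptor for the class I and class II inducer interferon gamma, was lower in BALB/c in both cell types (-0.89 ± 0.18 in each, limma adjusted p = 0.0360 and 0.0404). The type I interferon receptor chain Ifnar1 fell in iNKT17 cells as the mean of both strains (-0.85 ± 0.13, limma adjusted p = 8.78e-04), and so did Ifngr1 (-0.55 ± 0.13, limma adjusted p = 0.0153). The other 15 of this list did not pass in that comparison.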

How the data were processed

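RNA of 12 samples was hybridised to 1 array each, and the authors deposited 1 table of log2 values for 41345 probe sets. The submitters' processing notes name the R package oligo; its version and how values were summarised and normalized were not given in the sources used, and log2 was inferred from the range of the values. Array medians lay between 4.10 and 4.30, and arrays of a group correlated at r = 0.974 to 0.986. No further normalization was applied. Probe sets were named from GEO's platform annotation, which can be old: 23521 had 1 symbol, 1814 several and 16010 none given here, and names were checked against RefSeq GRCm38.p6 by gene ID. For each of 22180 genes the probe set with the highest mean over the 12 arrays was kept, and 16667 genes with at least 2 arrays above the 30th percentile of named values (3.45, the dim level) were tested. One group-means model over all arrays was fitted with limma 3.58.1 in R 4.3.3 (lmFit, eBayes; 7 residual and 4.50 prior degrees of freedom), with Benjamini-Hochberg adjustment over the genes tested and a threshold of 0.05. The 8 comparisons share this estimate of spread, and 2 or 3 arrays a group limit its precision. The fit was tested on simulated data. Every member could be named whatever its value, pathway genes only past the threshold (up to 4 a list and comparison), and marker genes freely. The members and lists were chosen with earlier results of these data known. Alternatives were median centring, quantile normalization, 2 other dim filters, the mean over probe sets, fits of only the groups compared, array weights, a trended robust prior, the replicate number as a block, and leaving out each array.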

Additional observations from a re-analysis of the deposited data

How the results depend on the processing

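Of the 19 member results past the threshold, 6 passed under all 21 alternatives: H2-T10 in both strain comparisons, H2-K1 between strains in iNKT17 cells, H2-DMa in B6 and as the mean of both strains, and H2-T24 as the mean of both strains. Members called numbered 5 for iNKT17 minus ROR- over both strains, 3 with the mean over probe sets, and 2 to 5 with an array left out; 2 in BALB/c, 4 after quantile normalization, and 0 to 3 with an array left out; and 2 in B6, with 1 to 2. For BALB/c minus B6 they numbered 4 in iNKT17 cells, with 2 to 4, and 3 in ROR- cells, with 2 to 4. For gamma-delta 17 minus ROR- they numbered 3, 0 with only the groups compared, and 0 to 3 with an array left out. The interaction and iNKT17 minus gamma-delta 17 gave 0 members under every alternative run. Over all genes the counts with an array left out were 1341 to 2051 (2051 with all arrays), 742 to 1150 (1161) and 492 to 1058 (998) for these iNKT17 minus ROR- comparisons, 0 to 15 (14) for the interaction, 77 to 530 (247) and 68 to 259 (203) for the strain comparisons in iNKT17 and ROR- cells, 530 to 1151 (1003) for gamma-delta 17 minus ROR- and 5 to 63 (28) for iNKT17 minus gamma-delta 17. A group left with 1 array was assumed to vary like the others. The interaction gave 9 genes after quantile normalization, the strain comparison in iNKT17 cells 549 with array weights, and with only the groups compared the strain comparison in ROR- cells gave 82 and iNKT17 minus gamma-delta 17 gave 2. The cause of these shifts was not tested, beyond the fewer samples that leaving out arrays or groups entails. With an array left out, H2-Ab1 ranged from -0.037 (without B6 ROR- replicate 2) to 0.62 in iNKT17 minus ROR-, and H2-Q4 from -2.16 to 0.13 (without gamma-delta 17 replicate 1) in gamma-delta 17 minus ROR-.

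Over all groups the replicate numbers showed no general pairing: same-numbered arrays of different groups deviated together with a mean r of 0.02 (8 of 21 pairs above 0.1). Of 12 arrays 4 correlated best with an array of their own number. Same-numbered B6 ROR- and B6 iNKT17 arrays had r = 0.47, and those of different numbers -0.47. In BALB/c the same-numbered pairs of these cell types had r = -0.46, -0.34 and 0.14. The 2 arrays of a B6 group deviate in mirror image, so the B6 pairs are not independent. Whether the B6 arrays were paired was not tested further. With the replicate number as a block the interaction gave 6 genes, members called numbered 4, 2, 2, 0, 4, 2, 0 and 2 in the 8 comparisons in the order of cell type (mean, BALB/c, B6), interaction, strain (iNKT17, ROR-), iNKT17 against gamma-delta 17, and gamma-delta 17 against ROR-, and Tap2 (mean, limma adjusted p = 0.0553), Nlrc5 (strain in ROR-, 0.118) and H2-K1 (gamma-delta 17 minus ROR-, 0.058) were no longer called. Near the dim level of 3.45 (H2-Aa, H2-Q1) differences cannot be sized.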

Other observations

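Of the 32 tested members 5 differed by more than 0.5 log2 units between the arrays of the gamma-delta 17 group, 15.6%, against 1700 of the 16667 genes tested, or 10%, so the members' count is near that of all genes. H2-Q4 was 2.30 higher on replicate 2, H2-Q5 1.02, Tap1 0.62 and the immunoproteasome subunit Psmb10 0.60, while H2-DMa was 0.52 higher on replicate 1, the array on which Lyz2 read 6.86, against 3.59 on replicate 2.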
